A study of Mus musculus with 35 samples.

Results

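The collagen genes of mouse fat were compared between interscapular brown adipose tissue (iBAT) and epididymal white adipose tissue (eWAT). A gene was taken as a collagen when its mouse symbol reads Col, a number, a and a number, with Col27a1 set aside. Of the 43 symbols that meet this rule, 42 were among the 18947 genes of the mRNA table, and Col9a1 was not. They fall into 10 fibrillar chains, 6 basement membrane chains of type IV, 6 chains of type VI, 8 fibril-associated chains and 12 chains of other kinds.

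The mRNA came from whole, untreated depots of male C57BL/6J mice aged 15 weeks, 4 iBAT and 4 eWAT samples, frozen at dissection. The miRNA came from 3 libraries each of 6 depots (iBAT, eWAT, mWAT, iWAT, aWAT and cWAT, as the labels write them) from mice aged 13 weeks. Housing was at room temperature, except for inguinal pads from mice kept in the cold, which the protocol does not tie to a label. No label says that samples of a depot came from separate animals, so p-values reflect the spread between these samples alone. The mRNA table holds the authors' comparison and no value per library. Its direction is not stated. The brown fat genes Ucp1 and Cidea had positive values, and the eWAT genes Lep and Wt1 negative ones, so a positive log2 fold change was taken to mean a higher level in iBAT.

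Collagens are trimers, most of them secreted and some transmembrane, whose chains wind into a triple helix of repeated glycine-containing triplets. Fibrillar collagens of types I, III and V build the tensile fibrils of connective tissue, with type V chains at the core of type I fibrils. Type IV collagen forms the sheet-like network of basement membranes, which surround every adipocyte and blood vessel. Type VI collagen forms beaded microfibrils and is a prominent part of the matrix around fat cells. In adipose tissue, fibroblasts and adipocyte progenitors make much of the fibrillar collagen, while adipocytes and endothelial cells contribute to the basement membrane. In whole tissue, fewer cells of a type and less RNA per cell cannot be told apart.

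More collagens were lower in iBAT than were higher. At an adjusted p under 0.05, 20 of the 42 were lower in iBAT, 5 were higher and 17 were called in neither direction in the authors' deposited table. Over all genes of that table, 27.1% were called lower and 20.9% higher in iBAT, 48.0% in all. With fold changes centred on the median of all genes and p-values computed from them and their SE, 19 collagens were lower and 4 higher, against 4008 genes lower and 4246 higher in all. The median log2 fold change was -0.58 over the collagens and -0.10 over all genes in the authors' deposited table. Of the collagens called, 17 were lower and 5 higher by at least 1 on the log2 scale in the authors' deposited table, a size that 19.5% and 11.0% of all genes reached in these directions.

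The base mean, an average of normalized counts over all samples, ranged from 1.50 for Col9a2 to 34645 for Col3a1 in the authors' deposited table. That average is given below as the depth behind a fold change, since counts of genes of unequal length do not compare their levels. Among the 20 collagens at or above the median base mean of all genes (342.8), 14 were lower in iBAT, 1 was higher and 5 were not called according to the authors' deposited table. Of all genes at that depth in the same table, 24.8% were called lower and 32.1% higher, 56.9% in all. Among the 22 collagens under the median, 6 were lower (27.3%), 4 higher (18.2%) and 12 not called according to the authors' deposited table. Of all genes under the median in the same table, 29.4% were called lower and 9.8% higher, 39.2% in all. The share of lower collagens there thus lay near the background. Of 13 collagens with a base mean under 100, 11 were not called, with log2 fold changes between -0.56 and 0.37 and standard errors between 0.57 and 1.12 in the authors' deposited table.

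**Figure D1:**
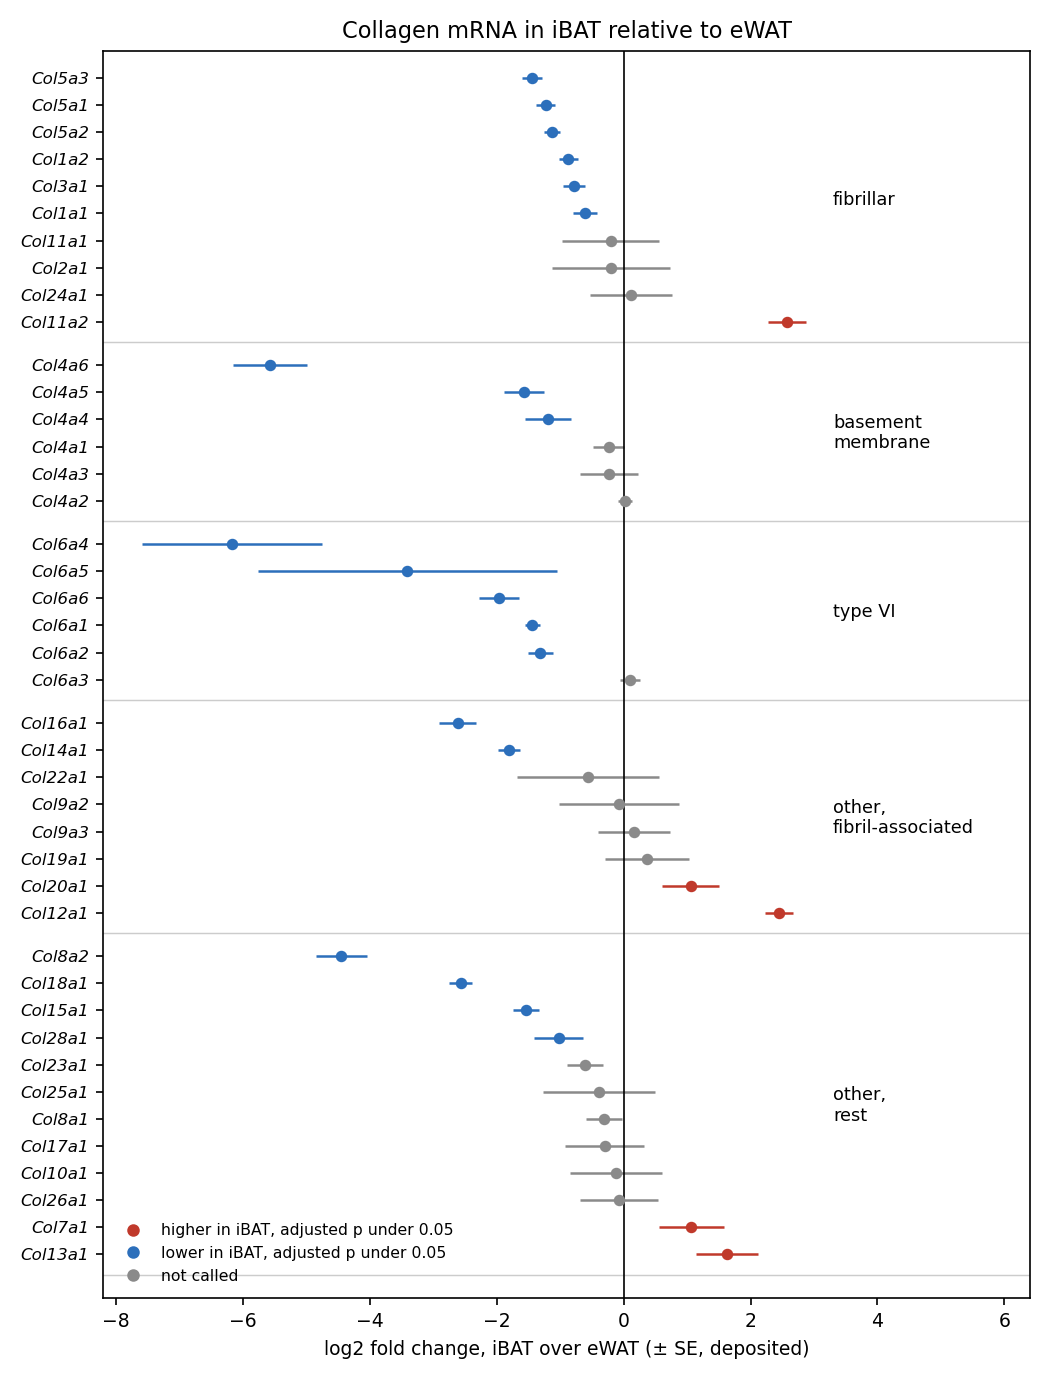
Log2 fold change of each of the 42 collagens in iBAT over eWAT, with bars of ± SE from the authors' deposited table, grouped by class and ordered by value. The 6 chains of types I, III and V lie together between -0.61 and -1.44, Col4a1, Col4a2 and Col6a3 lie near 0, and Col11a2 and Col12a1 lie furthest to the right.

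**Figure D2:**
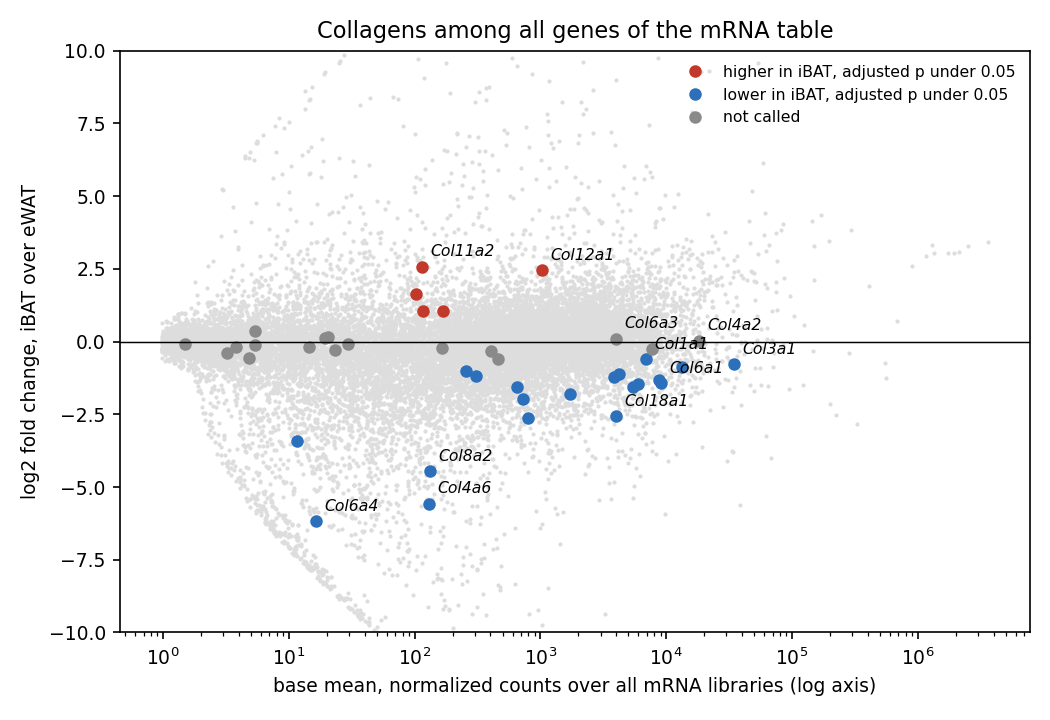
Log2 fold change in iBAT over eWAT against base mean (log axis) for all genes of the authors' deposited table (light points) and for the 42 collagens (coloured by call). The vertical axis ends at -10 and 10, which leaves out 102 genes, none of them a collagen. Deeply counted collagens lie mostly below 0, with Col4a2 and Col6a3 close to 0.

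The 6 fibrillar chains of types I, III and V were all lower in iBAT, and Col11a2 was higher. Of the 10 fibrillar genes, 6 were lower in iBAT, 1 was higher and 3 were not called, with a median log2 fold change of -0.70 in the authors' deposited table. The shares over all genes of that table were 27.1% lower and 20.9% higher, 48.0% in all. Col1a1 (ENSMUSG00000001506, chr11:94936224-94953042; all coordinates are RefSeq, GRCm38.p6), the chain that with Col1a2 forms type I collagen, was lower at -0.61 ± 0.18 (SE, base mean 6845, adjusted p = 0.00212) according to the authors' deposited table. Col1a2 (ENSMUSG00000029661) was lower at -0.87 ± 0.15 (SE, base mean 13302, adjusted p = 3.01e-08) according to the authors' deposited table. Col3a1 (ENSMUSG00000026043, chr1:45311538-45349706), the single chain of type III collagen found in soft, distensible tissue, was lower at -0.78 ± 0.17 (SE, base mean 34645, adjusted p = 1.03e-05) according to the authors' deposited table. These 3 changes amount to levels 1.53-fold, 1.83-fold and 1.72-fold lower in iBAT.

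The type V chains regulate how type I fibrils start and how wide they grow. Col5a1 (ENSMUSG00000026837) was lower in iBAT at -1.23 ± 0.15 (SE, base mean 3808, adjusted p = 2.5e-16) according to the authors' deposited table. Col5a2 (ENSMUSG00000026042), the neighbour of Col3a1 on chromosome 1 at a distance of 24624 bases, was lower at -1.13 ± 0.12 (SE, base mean 4195, adjusted p = 9.27e-20) according to the authors' deposited table. Col5a3 (ENSMUSG00000004098, chr9:20770050-20815117), the chain with the most restricted expression of the type, was lower at -1.44 ± 0.15 (SE, base mean 5917, adjusted p = 4.59e-20) according to the authors' deposited table. The 95% interval of Col5a3, from -1.75 to -1.14, lies below those of Col1a1 (-0.97 to -0.25) and Col3a1 (-1.11 to -0.45). It overlaps that of Col1a2 (-1.17 to -0.58). All these intervals were computed from the deposited SE. With no value per library, the difference between these genes was not tested.

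Col11a2 (ENSMUSG00000024330, chr17:34038919-34066684), a chain best known from cartilage fibrils, was the fibrillar chain that was higher. It was 5.96-fold higher in iBAT, at 2.58 ± 0.30 (SE, base mean 115.2, adjusted p = 2.05e-17) according to the authors' deposited table. Its partners in cartilage were not called according to the authors' deposited table: Col11a1 had a log2 fold change of -0.20 ± 0.76 (SE, base mean 14.5) and Col2a1 of -0.20 ± 0.93 (SE, base mean 3.76). Col24a1, a minor fibrillar chain, was not called either, at 0.11 ± 0.65 (SE, base mean 19.3) in the authors' deposited table. Of 9 measured markers of cartilage, bone and tendon, 4 were lower in iBAT and 5 not called according to the authors' deposited table. Shares over all genes were 27.1% lower and 20.9% higher, 48.0% in all, against 44.4% of these markers lower. All but the cartilage regulator Sox9 (-1.47 ± 0.42, base mean 256.0) had base means under 100, from 2.34 for Bglap to 37.9 for Cnmd. The aggrecan gene Acan was at -0.34 ± 0.84 (SE, base mean 4.59) in the authors' deposited table. Sp7 (base mean 3.32) lost its lower call with p-values computed from its fold change and SE (adjusted p = 0.255). The bearing of this list on Col11a2 was not tested.

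The common basement membrane chains Col4a1 and Col4a2 were not called, while 3 of the other 4 type IV chains were lower in iBAT. Of the 6 type IV genes, 3 were lower in iBAT and 3 were not called, with a median log2 fold change of -0.71 in the authors' deposited table. The share called, 50%, lay near the 48.0% of all genes of that table, of which 27.1% were called lower and 20.9% higher. Col4a1 (ENSMUSG00000031502) and Col4a2 (ENSMUSG00000031503) form the type IV collagen of most basement membranes. Col4a1 had a log2 fold change of -0.24 ± 0.25 (SE, base mean 7721, adjusted p = 0.425) according to the authors' deposited table. Col4a2 had 0.02 ± 0.11 (SE, base mean 18116, adjusted p = 0.882) according to the authors' deposited table, which gives a 95% interval from -0.20 to 0.25. The interval of Col4a1 ran from -0.72 to 0.24, so that for this pair a change as large as those of the type V chains lay outside the intervals.

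The other 4 chains belong to more specialised type IV networks. Col4a5 (ENSMUSG00000031274) was lower in iBAT at -1.57 ± 0.31 (SE, base mean 648.3, adjusted p = 6.51e-07) according to the authors' deposited table. Col4a6 (ENSMUSG00000031273), a chain of basement membranes around epithelium and smooth muscle, was 47.7-fold lower, at -5.58 ± 0.58 (SE, base mean 129.1, adjusted p = 1.28e-21) according to the authors' deposited table. Col4a4, which works with Col4a3 and Col4a5 in the kidney filter, was lower at -1.19 ± 0.36 (SE, base mean 309.2, adjusted p = 0.00148) according to the authors' deposited table. Col4a3 was not called, at -0.23 ± 0.46 (SE, base mean 164.9, adjusted p = 0.666) according to the authors' deposited table. Markers of mesothelium were lower, and those of smooth muscle and pericytes were divided, in the authors' deposited table. All 10 mesothelial markers were lower in iBAT (median -8.92), among them Wt1, which had served to read the direction. Of 9 smooth muscle and pericyte markers 5 were lower and 4 higher, where 27.1% of all genes were lower and 20.9% higher. Tagln, a contractile protein gene of smooth muscle, was at -2.84 ± 0.40 and the pericyte gene Rgs5 at 1.40 ± 0.18 in the authors' deposited table. No level per depot was at hand for these lists, and their part in the Col4a6 value was not tested.

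Type IV genes are known for sitting in head-to-head pairs that are read in opposite directions. The sequences shown run from 250 bases before to 50 bases after the first base of a RefSeq transcript of each gene, which can lie inside the annotated gene span, 5′ to 3′ on its own strand, from RefSeq on GRCm38.p6. They are shown because the fold changes lay close together in the pair Col4a1 and Col4a2 and far apart in the pair Col4a6 and Col4a5. Capitals mark the letters CCAAT and GGGCGG on either strand, searched separately. Col4a1 (chr8:11312777-11313076, minus strand) and Col4a2 (chr8:11312555-11312854, plus strand) have transcript first bases 21 bases apart, and their windows share 78 bases, so a match there counts for both genes. Col4a6 (chrX:141474027-141474326, minus strand) and Col4a5 (chrX:141475169-141475468, plus strand) have first bases 1343 apart, and their windows do not meet.
Col4a1: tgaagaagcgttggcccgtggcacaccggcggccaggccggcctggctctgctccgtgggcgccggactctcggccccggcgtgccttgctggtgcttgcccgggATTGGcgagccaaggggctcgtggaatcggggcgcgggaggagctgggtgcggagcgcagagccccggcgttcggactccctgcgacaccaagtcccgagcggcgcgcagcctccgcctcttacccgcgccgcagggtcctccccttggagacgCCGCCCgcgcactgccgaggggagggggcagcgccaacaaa
Col4a2: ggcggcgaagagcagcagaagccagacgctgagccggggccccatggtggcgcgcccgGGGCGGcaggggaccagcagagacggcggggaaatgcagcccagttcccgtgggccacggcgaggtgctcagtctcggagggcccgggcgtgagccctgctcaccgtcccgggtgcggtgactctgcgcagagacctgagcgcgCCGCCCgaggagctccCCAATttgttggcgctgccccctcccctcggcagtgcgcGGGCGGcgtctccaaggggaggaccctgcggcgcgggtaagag
Col4a6: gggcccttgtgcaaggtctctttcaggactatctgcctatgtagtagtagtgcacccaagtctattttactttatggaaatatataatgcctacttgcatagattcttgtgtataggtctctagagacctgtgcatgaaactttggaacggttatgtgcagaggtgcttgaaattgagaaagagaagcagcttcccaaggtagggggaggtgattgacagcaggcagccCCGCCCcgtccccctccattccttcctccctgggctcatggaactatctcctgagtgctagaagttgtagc
Col4a5: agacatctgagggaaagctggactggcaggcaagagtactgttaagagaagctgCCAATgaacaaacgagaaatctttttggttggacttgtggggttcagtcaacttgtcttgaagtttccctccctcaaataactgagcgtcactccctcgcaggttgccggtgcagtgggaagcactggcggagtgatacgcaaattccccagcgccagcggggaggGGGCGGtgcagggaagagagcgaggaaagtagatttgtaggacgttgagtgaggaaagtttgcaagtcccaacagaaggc

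The log2 fold changes were -0.24 for Col4a1 and 0.02 for Col4a2, and -5.58 for Col4a6 and -1.57 for Col4a5 in the authors' deposited table. The 95% intervals overlapped for Col4a1 and Col4a2 and did not for Col4a6 (-6.71 to -4.44) and Col4a5 (-2.18 to -0.96). In the third pair Col4a4 was called lower and Col4a3 was not, and their intervals overlapped (-1.91 to -0.48 and -1.13 to 0.67). The windows of Col4a1 and Col4a2 held 74% and 73.7% G and C, those of Col4a6 and Col4a5 48.3% and 52.7%. Col4a4 and Col4a3 (chr1:82448419-82587034 and chr1:82586921-82722059) overlap by 114 bases at the ends of their annotated spans, and the spans of Col4a1 and Col4a2 by 85. The sources used here do not say whether counting used the strand, so reads in those overlaps may not be told apart. Promoter windows were at hand for 34 of the 43 collagens. CCAAT or its complement ATTGG was in 35.1% of the 37 collagen windows and in 37.4% of all 32851 windows. GGGCGG or CCGCCC was in 59.5% of collagen windows and 35.7% of all. TATAAA or TTTATA was in 13.5% of collagen windows and 13.6% of all, and in none of the 4 windows printed.

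All measured type VI chains but Col6a3 were lower in iBAT. Of 6 type VI genes, 5 were lower in iBAT and 1 was not called, with a median log2 fold change of -1.70 in the authors' deposited table. Over all genes of that table, 27.1% were called lower and 20.9% higher, 48.0% in all. Col6a1 (ENSMUSG00000001119, chr10:76708792-76726044), Col6a2 (ENSMUSG00000020241, chr10:76595756-76623630) and Col6a3 (ENSMUSG00000048126, chr1:90766860-90844001) are the chains of the classic trimer. Col6a1 was 2.71-fold lower, at -1.44 ± 0.12 (SE, base mean 9129, adjusted p = 2.32e-32) according to the authors' deposited table. Col6a2 was 2.49-fold lower, at -1.32 ± 0.20 (SE, base mean 8686, adjusted p = 1.61e-10) according to the authors' deposited table.

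Col6a3, the large chain whose cleaved end is the adipose-derived fragment endotrophin, had a log2 fold change of 0.10 ± 0.16 (SE, base mean 3997, adjusted p = 0.628) according to the authors' deposited table. Its 95% interval from -0.21 to 0.40 did not overlap those of Col6a1 (-1.67 to -1.21) or Col6a2 (-1.71 to -0.93). The difference between these chains could not be tested without values per library. Col6a1 and Col6a2 are neighbours on chromosome 10, 85161 bases apart, while Col6a3 lies on chromosome 1.

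The chains Col6a4, Col6a5 and Col6a6 can take the place of Col6a3 in the trimer and lie side by side on chromosome 9. Col6a6 was lower in iBAT at -1.97 ± 0.31 (SE, base mean 720.7, adjusted p = 6.03e-10) according to the authors' deposited table. Col6a4 was lower at -6.17 ± 1.42 (SE, base mean 16.3, adjusted p = 3.68e-07) according to the authors' deposited table. Col6a5 was lower at -3.41 ± 2.36 (SE, base mean 11.6, adjusted p = 0.0136) according to the authors' deposited table, but with p-values computed from its fold change and SE it was not called (adjusted p = 0.259), and its 95% interval ran from -8.03 to 1.21. The 2 rarely counted chains carry wide errors, and with no value per library a depot at 0 could not be recognised.

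Fibril-associated collagens bind to fibril surfaces. Of 8 genes, 2 were lower in iBAT, 2 were higher, and the median log2 fold change of all 8 was 0.05 in the authors' deposited table, shares close to the 27.1% lower and 20.9% higher of all genes. Col14a1 (ENSMUSG00000022371), which binds decorin on type I fibrils, was lower at -1.81 ± 0.17 (SE, base mean 1716, adjusted p = 1.9e-24) according to the authors' deposited table. Col16a1 (ENSMUSG00000040690) was 6.15-fold lower, at -2.62 ± 0.30 (SE, base mean 799.7, adjusted p = 2.91e-18) according to the authors' deposited table. Col12a1 (ENSMUSG00000032332, chr9:79598987-79721141), the nearest relative of Col14a1 and a component of tendon, fascia and muscle connective tissue, was 5.45-fold higher, at 2.45 ± 0.22 (SE, base mean 1027, adjusted p = 8.21e-28) according to the authors' deposited table. Col12a1 was the 1 collagen at or above the median base mean that was higher in iBAT.

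Col20a1 was higher at 1.06 ± 0.45 (SE, base mean 116.5, adjusted p = 0.0207) according to the authors' deposited table. Col22a1, known from the muscle-tendon junction, had a log2 fold change of -0.56 ± 1.12 (SE, base mean 4.84) and was not called according to the authors' deposited table. Col9a2 (-0.07), Col9a3 (0.17) and Col19a1 (0.37) were not called, with base means of 1.50, 20.3 and 5.40 according to the authors' deposited table.

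Among the remaining collagens, Col15a1 and Col18a1, which carry both collagen and proteoglycan features, were lower in iBAT. Of these 12 genes, 4 were lower and 2 higher, and the median log2 fold change was -0.35 in the authors' deposited table, where 27.1% of all genes were lower and 20.9% higher, so the class as a whole lay near the background. Col18a1 (ENSMUSG00000001435, chr10:77052178-77166530), the source of endostatin, was 5.95-fold lower, at -2.57 ± 0.18 (SE, base mean 3997, adjusted p = 1.98e-45) according to the authors' deposited table. Col15a1 (ENSMUSG00000028339), its close relative that links basement membranes to the fibrils beneath, was 2.92-fold lower, at -1.55 ± 0.20 (SE, base mean 5474, adjusted p = 1.05e-13) according to the authors' deposited table. These proteins accompany type IV collagen, whose main chains Col4a1 and Col4a2 were not called.

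The short-chain network collagens divided. Col8a2 (ENSMUSG00000056174) was 21.9-fold lower in iBAT, at -4.45 ± 0.40 (SE, base mean 133.1, adjusted p = 2.6e-28) according to the authors' deposited table. Its partner Col8a1, a vessel wall and corneal collagen, was not called, at -0.31 ± 0.29 (SE, base mean 407.8, adjusted p = 0.369) according to the authors' deposited table. Col10a1, the related chain of growth plate cartilage, was not called at -0.12 ± 0.73 (SE, base mean 5.40) according to the authors' deposited table.

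Col28a1, a von Willebrand domain collagen known from peripheral nerve, was lower at -1.02 ± 0.39 (SE, base mean 256.8, adjusted p = 0.011) according to the authors' deposited table. Of 8 Schwann cell markers 6 were higher in iBAT and 1 lower (median 1.71), with the myelin gene Mbp at 1.22 ± 0.11 in the authors' deposited table. Col7a1, the anchoring fibril collagen of skin, was higher at 1.07 ± 0.51 (SE, base mean 166.8, adjusted p = 0.0367) according to the authors' deposited table, but not called with p-values computed from its fold change and SE (adjusted p = 0.0788).

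Of the transmembrane collagens, 1 was called. Col13a1, which acts at the neuromuscular junction, was 3.08-fold higher in iBAT, at 1.63 ± 0.49 (SE, base mean 102.9, adjusted p = 0.000739) according to the authors' deposited table. Col23a1 was not called, at -0.61 ± 0.29 (SE, base mean 458, adjusted p = 0.0562) according to the authors' deposited table. Col17a1 of hemidesmosomes (-0.30 ± 0.62) and Col25a1 of neurons (-0.39 ± 0.88) were not called, nor was the secreted chain Col26a1 (-0.07 ± 0.61) in the authors' deposited table.

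The 5 collagens higher in iBAT, Col7a1, Col11a2, Col12a1, Col13a1 and Col20a1, stood beside skeletal muscle markers that were also higher. All 13 muscle markers were called higher, with a median log2 fold change of 8.65 and a range from 4.53 to 17.69 in the authors' deposited table. The fast myosin gene Myh4 was at 17.69 ± 1.36, the actin gene Acta1 at 5.06 ± 0.31 and the troponin gene Tnnc2 at 4.53 ± 0.57 in the authors' deposited table. The part of muscle in the values of these collagens was not tested.

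The lower collagens stood beside fibroblast, macrophage and mesothelial markers that were lower. Of 12 fibroblast and progenitor markers 11 were lower in iBAT and 1 not called, with a median of -1.40 in the authors' deposited table. The actin-binding protein gene Gsn was at -2.54 ± 0.20, the progenitor gene Dpp4 at -2.45 ± 0.29, and the receptor gene Pdgfra at -0.96 ± 0.26 in the authors' deposited table. All 8 macrophage markers were lower (median -1.89), with Mmp12 at -4.19 ± 0.27 and Adgre1 at -1.31 ± 0.19 in the authors' deposited table. Of 10 endothelial markers 2 were higher and 4 lower (median -0.33), with the receptor gene Kdr at 1.11 ± 0.22 and Vwf at -2.40 ± 0.21 in the authors' deposited table. Of 8 adipocyte genes, 2 were higher, 5 lower and 1 not called (median -0.80) in the authors' deposited table, 3 of which served to read the direction. The part of cell numbers in the collagen values was not tested.

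**Figure D3:**
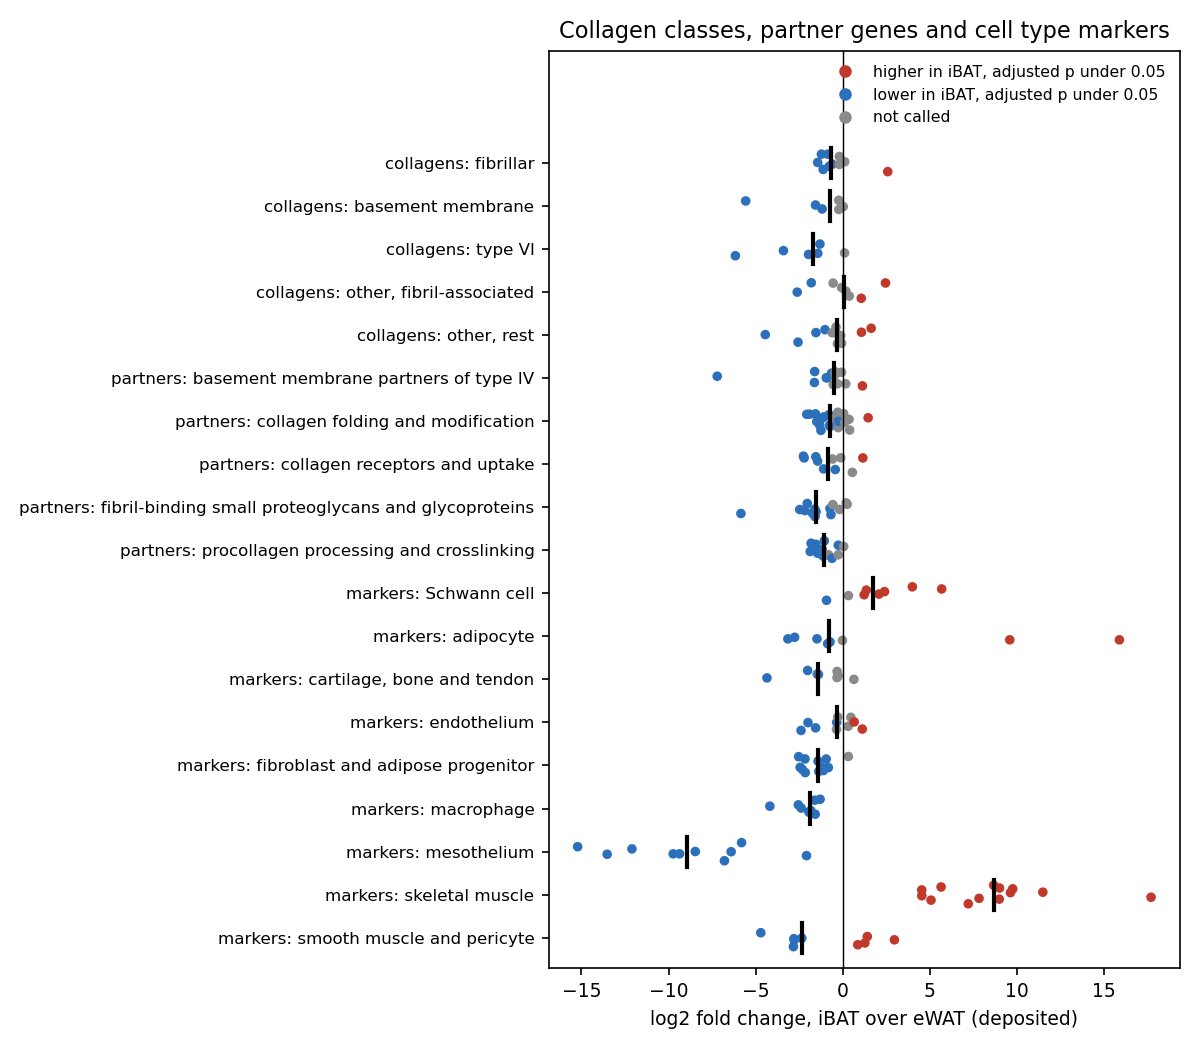
Log2 fold change in iBAT over eWAT of every measured member of the collagen classes, of 5 lists of collagen partner genes and of 9 lists of cell type markers, coloured by call, from the authors' deposited table; the black bar is the median of each list. The partner lists have negative medians, from -0.49 to -1.57, as have the collagen classes except the fibril-associated one (0.05). Muscle markers lie at the far right with a median of 8.65.

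Genes whose products make, cut and bind collagen were lower in iBAT more often than higher. Over 73 measured partner genes in 5 lists, 45 were lower, 3 higher and 25 not called, with a median log2 fold change of -0.80, against 27.1% lower and 20.9% higher over all genes of the authors' deposited table. These lists share no member with the collagens.

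Collagen folding and modification takes place in the endoplasmic reticulum. Of 21 genes 12 were lower, 1 higher and 8 not called (median -0.74) in the authors' deposited table. P4hb, the disulfide isomerase that is also a subunit of prolyl hydroxylase, was lower at -2.07 ± 0.23 (SE, adjusted p = 1.68e-18), and the prolyl isomerase Fkbp10 at -1.90 ± 0.30 (SE, adjusted p = 3.12e-10) according to the authors' deposited table. Fkbp14, a related isomerase, was lower at -0.74 ± 0.18, and Mia3, which loads procollagen into transport carriers, at -0.25 ± 0.09 (SE, adjusted p = 0.0187) according to the authors' deposited table. The Mia3 call was lost with fold changes centred on the median of all genes and p-values computed from them and their SE (adjusted p = 0.192). Serpinh1, the collagen-specific chaperone HSP47, was not called, at 0.10 ± 0.23 (SE, adjusted p = 0.737), and neither was the hydroxylase subunit P4ha1, at -0.29 ± 0.24 (SE, adjusted p = 0.302) according to the authors' deposited table. Colgalt2, a collagen galactosyltransferase, was the member higher in iBAT, at 1.45 ± 0.27 (SE, adjusted p = 2.74e-07) according to the authors' deposited table. Serpinh1, P4ha1 and Colgalt2 were chosen for mention after their values were seen.

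Outside the cell, procollagen ends are trimmed and fibrils are crosslinked. Of 14 genes of these steps 11 were lower and 3 not called (median -1.10) in the authors' deposited table. Adamts2, the protease that removes the amino-terminal propeptide of fibrillar collagens, was lower at -1.82 ± 0.20 (SE, adjusted p = 7.02e-19) according to the authors' deposited table. The lysyl oxidase family crosslinks fibrils, and Loxl1 was lower at -1.55 ± 0.23 (SE, adjusted p = 7.53e-11) and Lox at -0.62 ± 0.20 (SE, adjusted p = 0.00456) according to the authors' deposited table. Tgm2, a transglutaminase, was lower at -0.26 ± 0.09 (SE, adjusted p = 0.00949) according to the authors' deposited table, a call lost with the same centring and p-values (adjusted p = 0.131).

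Proteins that coat fibrils had the lowest median of the 5 partner lists, -1.57, with 10 of 14 genes lower and 4 not called according to the authors' deposited table. Fmod, the proteoglycan fibromodulin, was lower at -5.85 ± 0.34 (SE, base mean 1518, adjusted p = 1.52e-65) according to the authors' deposited table. The matricellular gene Thbs2 was lower at -2.47 ± 0.31 (SE, adjusted p = 3.95e-15), the lumican gene Lum at -0.74 ± 0.18 (SE, adjusted p = 7.95e-05) and the tenascin gene Tnxb at -0.69 ± 0.10 (SE, adjusted p = 2.61e-11) according to the authors' deposited table.

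Basement membrane partners of type IV collagen comprised 6 of 14 genes lower, 1 higher and 7 not called (median -0.49) in the authors' deposited table. The share called, 50%, lay near the 48.0% of all genes, while 42.9% were lower, against 27.1% of all genes. The nidogens link laminin to type IV collagen, and Nid1 was lower at -1.62 ± 0.19 (SE, adjusted p = 7.47e-17) and Nid2 at -1.63 ± 0.33 (SE, adjusted p = 1.45e-06) according to the authors' deposited table. The laminin gene Lamc1 was lower at -0.65 ± 0.16 (SE, adjusted p = 0.000107), while Agrn, a heparan sulfate proteoglycan, was higher at 1.12 ± 0.16 (SE, adjusted p = 1.05e-11) according to the authors' deposited table. Of 10 collagen receptors and uptake genes 6 were lower, 1 higher and 3 not called (median -0.85) in the authors' deposited table. The collagen-activated kinase Ddr1 was lower at -2.22 ± 0.18 (SE, adjusted p = 1.59e-34), the collagenolytic protease gene Ctsk at -1.55 ± 0.25 (SE, adjusted p = 1.18e-09) and the shared integrin chain Itgb1 at -0.44 ± 0.10 (SE, adjusted p = 6.88e-05) according to the authors' deposited table. Itga1, the integrin chain with a preference for type IV collagen, was higher at 1.15 ± 0.19 (SE, adjusted p = 2.68e-09) according to the authors' deposited table.

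The miRNA libraries gave values per sample for the miR-29 family, which is known to bind transcripts of several collagens, Col1a1, Col1a2 and Col3a1 among them. miR-29a-3p is encoded at chr6:31062673-31062694 on the minus strand, beside a copy of miR-29b-3p at chr6:31063025-31063047, and miR-29c-3p at chr1:195037600-195037621 on the plus strand, beside the other copy of miR-29b-3p at chr1:195037091-195037113. The 3p arms are the strands known for binding collagen transcripts. The mature 3p arms are printed 5′ to 3′ from RefSeq (GRCm38.p6), with the seed, bases 2 to 8, in capitals.
miR-29a-3p: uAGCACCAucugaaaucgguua
miR-29b-3p: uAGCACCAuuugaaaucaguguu
miR-29c-3p: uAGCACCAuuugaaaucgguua
All 3 share the seed. Counted from the 5′ end, miR-29c-3p differs from miR-29a-3p by C10U alone over its length.

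All 3 of these strands were higher in iBAT than in eWAT. The values are the authors' normalized counts, tested with limma on log2(normalized count + 1) in 1 fit of all 18 libraries. miR-29a-3p had 63978, 58464 and 63575 normalized counts in iBAT, against 41312, 40869 and 46133 in eWAT. The 3 iBAT libraries were above the 3 eWAT libraries and above the 12 libraries of the other depots (28436 to 42227). The difference was 1.45-fold, a log2 fold change of 0.54 ± 0.13 (SE; limma, Benjamini-Hochberg adjusted p = 0.00271).

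miR-29b-3p had 945.4, 790.8 and 880.4 normalized counts in iBAT, against 527, 569.3 and 649.9 in eWAT. It was 1.50-fold higher, at 0.58 ± 0.17 (SE; limma, Benjamini-Hochberg adjusted p = 0.011). miR-29c-3p had 1049, 856.9 and 975.3 normalized counts in iBAT, against 519.3, 508.2 and 571.7 in eWAT. It was 1.80-fold higher, at 0.85 ± 0.18 (SE; limma, Benjamini-Hochberg adjusted p = 0.000876). For both, the lowest iBAT library was above the highest of eWAT and of the other depots (582.7 for miR-29b-3p and 572 for miR-29c-3p).

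In all, 4 of the 6 miR-29 arms tested were higher in iBAT and the other 2 not called, where 25.5% of the 436 miRNAs tested were called higher and 29.6% lower, 55% in all. The fourth was miR-29a-5p, at 52.9, 58.1 and 56.2 normalized counts in iBAT, against 25.8, 31.6 and 35.6 in eWAT (log2 fold change 0.84 ± 0.32, SE; limma adjusted p = 0.039). That call was lost without any 1 of the 6 libraries of these depots (limma adjusted p from 0.0533 to 0.125). miR-29b-2-5p (limma adjusted p = 0.0592) and miR-29c-5p (limma adjusted p = 0.528) were not called, and miR-29b-1-5p was too low to test. The mRNA and miRNA came from mice of different ages, and whether miR-29 had a part in the collagen values was not tested.

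**Figure D4:**
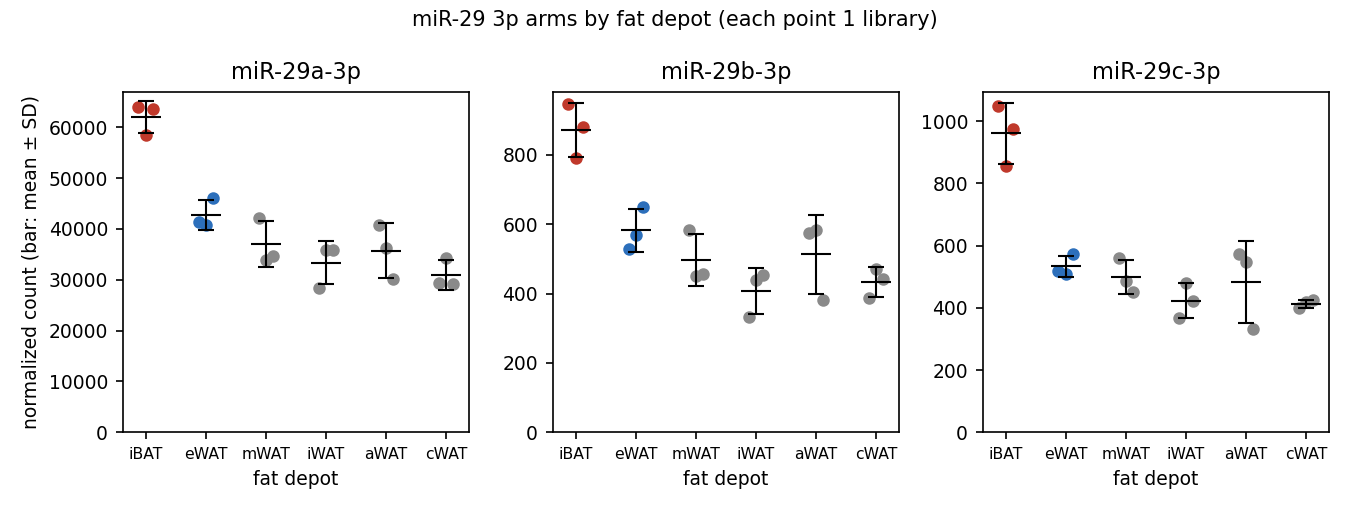
Normalized counts of miR-29a-3p, miR-29b-3p and miR-29c-3p in each library of the 6 depots (points), with the mean and SD of 3 libraries (bars). In each panel the 3 iBAT libraries lie above the other 15, among them all 3 eWAT libraries.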

How the data were processed

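Members, lists and classes were chosen with earlier results of these data known. Of 35 samples, 8 mRNA and 18 miRNA samples entered through processed tables, and 9 Argonaute HITS-CLIP samples were not analysed here. Tools named without a role in the submitters' processing notes are Novoalign, DESeq, DESeq2 and kallisto 0.45.0, with the builds mm10 and GRCm38. Per the labels' protocols, mRNA libraries used a stranded total RNA kit. In the mRNA table the base mean is a signal, per the file headers an average of normalized counts. Its log2 fold changes, SEs, p-values and adjusted p-values are the authors' own, per the file headers, with no value per library and so no SD or depth. Benjamini-Hochberg adjustment of the deposited p-values gave the adjusted ones within 2.4e-07, but only 10.7% of p-values equalled those computed from fold change and SE (tolerance 0.01 in log10 p). The sources used here do not name the test behind them. Of 18947 Ensembl IDs, 18758 matched a symbol. Intervals of 95% are fold change ± a normal quantile times SE.

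The miRNA table holds normalized counts, a signal that the authors deposited; its steps within each library are those of counts divided by 1 size factor. Whole reads were recovered for 100% of values within 0.02 reads, with 1293407 to 6816555 reads a library; in 12 libraries the smallest value was read as 2 reads. limma 3.58.1 (R 4.3.3) was fitted with eBayes and trend on log2(value + 1) of the 436 of 485 miRNAs that edgeR's filterByExpr kept. edgeR 4.0.16 and DESeq2 1.42.0 on recovered reads were alternatives; edgeR called 228 miRNAs and limma 240. The scripts were tested on simulated data. Full statistics were given for collagens at or above the median base mean and the called member of each class with the largest change, and examples from other lists were taken from the 2 called members with the highest and the 2 with the lowest fold change at that depth. Other genes named were chosen after their values were seen. Sequences are from RefSeq tables on GRCm38.p6.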

Additional observations from a re-analysis of the deposited data

How the results depend on the processing

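The mRNA counts could be varied only through the deposited statistics, and no mRNA library could be left out. With p-values computed from fold change and SE, 19 collagens were lower and 4 higher, and Col6a5 and Col7a1 lost their calls. Over all 18947 genes 4434 were then lower and 3673 higher. The same collagen counts were obtained when, in addition to those p-values, fold changes were centred on the median of all genes. The adjusted p of Col7a1 was then 0.0512, against 0.0788 with those p-values alone. With centring 4246 genes in all were higher and 4008 lower, so the balance of all genes turned towards higher calls while no called collagen changed direction. At an adjusted p under 0.01, 3 collagens in all were higher in iBAT, 2 of them outside the fibrillar, type IV and type VI classes. With a log2 fold change of at least 1, 3 fibrillar genes were lower in place of 6, where 19.5% of all genes were called lower by that size. Among genes with a base mean of at least 100, 3 type VI genes were lower in place of 5, because the other 2 were left out, and Col23a1 was called (adjusted p = 0.0474). Shares of all genes were not computed for that base mean or for an adjusted p under 0.01.

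The replicate numbers of the miRNA libraries showed little shared variation: deviations of same-numbered iBAT and eWAT libraries correlated at 0.03, -0.09 and 0.02. These values cannot tell whether same-numbered libraries came from the same animals. With the number as a replicate block 4 miR-29 arms were called higher, as without it, also when only iBAT and eWAT were in the fit, a setting chosen after seeing the data. Leaving out 1 iBAT or eWAT library gave 3 to 4 arms, and a pseudocount of 10 gave 5. Without 1 library the arm lost was miR-29a-5p, and miR-29b-2-5p was gained in 3 of the 6 fits and with the pseudocount of 10. edgeR, DESeq2, TMM scaling, no filter and a pseudocount of 0.5 gave 4. No paired analysis was possible for mRNA because the table holds no value per library. Of 13 collagens with a base mean under 100, 2 were called, Col6a4 and Col6a5, of which Col6a4 alone was called with p-values computed from fold change and SE.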
